A study of Homo sapiens with 6 samples.

Results

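The genes described here drive the entry of cells into S phase and the copying of their DNA. They were taken from a list of 46 symbols, each looked up under a single symbol in the array's annotation. All 46 were found among 11963 such genes, on 67 probe sets, and each gene was read from the brightest of its probe sets. The cells were A549, an established human lung adenocarcinoma line, seeded for 12 h in medium with 10% FBS. The first group of 2 arrays came from cells transfected with a pCMV5 plasmid that encodes human PIAS3, a SUMO E3 ligase that inhibits STAT3. In the second group of 2 arrays the cells had received an siRNA against STAT3, a transcription factor downstream of growth factor and cytokine receptors. The third group of 2 arrays, the EGF control, is labelled as EGF-stimulated and untransfected. Transfected cells were harvested after 48 h, and the labels give the control no time of its own. The series' design text gives serum-free medium and EGF for every group, whereas only the titles of the control arrays mention EGF. No array used here came from cells given an empty plasmid or a non-targeting siRNA, so transfection as such and the PIAS3 or siRNA treatment cannot be told apart. Whether arrays of the same group stem from different cultures is not stated, so the p-values rest on a spread between arrays that may be only technical.

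Before S phase the origin recognition complex, CDC6 and CDT1 load the MCM2 to MCM7 ring onto DNA, a step called licensing. At the G1/S switch, cyclin E with CDK2 frees E2F factors from the retinoblastoma protein, and E2F factors bind the promoters of many replication genes. CDC45 and the GINS complex then turn the MCM ring into an active helicase, the clamp loader RFC places PCNA on DNA, and polymerases alpha, delta and epsilon copy the strands with nucleotides made by enzymes such as RRM1, RRM2, TYMS and TK1.

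Promoter stretches of 9 of these genes are shown because the E2F link is what many of them share. A promoter of 250 bases before to 50 bases after the gene start was given by RefSeq on GRCh38.p14 for 40 of the 46 genes, in 53 windows, and POLD3, MCM4, RPA3, CCNE2, MCM5 and RPA2 were not matched. The words searched on both strands were TTTCCCGC, TTTGGCGC, TTTCGCGC and TTTGCCGC, which are forms of the E2F motif. At least 1 of them stood in the windows of 22 of the 40 genes (55.0%), against 3.99% of 27305 genes in the whole table. Per window the shares were 41.5% of 53 and 3.31% of 35116. The CCAAT word (both strands) was found in 57.5% of the 40 genes and in 39.7% of all genes. The word TTTGAA (both strands), a core of the CHR element of mitosis gene promoters, was found in 7.5% of the 40 genes and in 18.2% of all genes. Each stretch below runs 5′ to 3′ on the gene's strand, over the 160 bases before and the first 20 bases of the gene, with the E2F words in capitals. Only genes with an E2F word are shown. CDC6, GINS1, RFC3, UNG, POLA2 and DTL had some of the larger differences between PIAS3 and control arrays described below, and MCM6, TYMS and E2F2 had small ones. PRIM1, CCNE1, FEN1 and MCM10, with differences of -0.62, -0.61, -0.61 and -0.60, had no such word in their windows.
CDC6 (chr17:40287719-40287898, plus strand): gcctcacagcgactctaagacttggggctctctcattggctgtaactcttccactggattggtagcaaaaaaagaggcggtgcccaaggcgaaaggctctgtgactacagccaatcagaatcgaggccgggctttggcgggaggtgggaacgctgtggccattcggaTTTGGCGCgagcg
GINS1 (chr20:25407513-25407692, plus strand): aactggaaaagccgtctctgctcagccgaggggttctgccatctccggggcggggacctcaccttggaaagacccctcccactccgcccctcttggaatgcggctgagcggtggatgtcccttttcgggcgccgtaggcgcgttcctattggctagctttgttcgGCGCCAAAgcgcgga
RFC3 (chr13:33817989-33818168, plus strand): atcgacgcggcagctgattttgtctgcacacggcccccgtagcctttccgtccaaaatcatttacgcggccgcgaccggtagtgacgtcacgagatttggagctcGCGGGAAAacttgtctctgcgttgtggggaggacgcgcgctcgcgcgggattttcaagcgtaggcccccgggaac
UNG (chr12:109098012-109098191, plus strand): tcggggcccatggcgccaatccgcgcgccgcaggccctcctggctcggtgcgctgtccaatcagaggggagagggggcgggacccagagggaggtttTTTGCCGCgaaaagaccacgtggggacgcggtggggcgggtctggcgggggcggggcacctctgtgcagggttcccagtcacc
POLA2 (chr11:65261802-65261981, plus strand): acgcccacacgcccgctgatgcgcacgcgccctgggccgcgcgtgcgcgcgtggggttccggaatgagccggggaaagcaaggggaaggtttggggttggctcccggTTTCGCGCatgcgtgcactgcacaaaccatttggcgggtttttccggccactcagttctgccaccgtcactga
DTL (chr1:212035588-212035767, plus strand): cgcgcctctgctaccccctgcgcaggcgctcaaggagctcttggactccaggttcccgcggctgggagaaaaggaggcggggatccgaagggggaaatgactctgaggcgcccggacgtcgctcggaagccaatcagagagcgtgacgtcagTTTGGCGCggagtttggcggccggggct
MCM6 (chr2:135876424-135876603, minus strand): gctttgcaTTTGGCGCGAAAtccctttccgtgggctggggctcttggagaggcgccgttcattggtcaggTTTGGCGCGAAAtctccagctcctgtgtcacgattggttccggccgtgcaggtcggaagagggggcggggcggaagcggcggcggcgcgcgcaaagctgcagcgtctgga
TYMS (chr18:657493-657672, plus strand): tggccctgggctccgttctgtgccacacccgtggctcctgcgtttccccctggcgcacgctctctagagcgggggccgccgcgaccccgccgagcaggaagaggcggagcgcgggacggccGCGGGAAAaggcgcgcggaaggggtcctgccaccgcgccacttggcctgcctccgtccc
E2F2 (chr1:23531214-23531393, minus strand): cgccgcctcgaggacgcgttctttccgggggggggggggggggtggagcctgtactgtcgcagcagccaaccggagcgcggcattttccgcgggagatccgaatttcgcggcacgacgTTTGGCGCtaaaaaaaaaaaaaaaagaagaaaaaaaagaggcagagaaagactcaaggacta

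The median log2 difference between PIAS3 and control arrays was -0.31 over the 22 genes with an E2F word and -0.36 over the 18 matched genes without it. Relative to the control mean, the median on PIAS3 replicate 1 was -0.59 with the word and -0.61 without it, and on PIAS3 replicate 2 it was -0.10 with the word and -0.08 without it. MCM6 carries 4 overlapping words in 2 places in the stretch above and CDC6 a single word that starts 8 bases into the gene. A match in these windows is a description of letters and not of a bound site. Other forms of the motif were not searched, so genes counted as without a word may still carry one.

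The 6 arrays were checked first. STAT3 read 10.18 and 9.70 on the PIAS3 arrays, 10.23 and 9.94 on the siRNA arrays, and 10.50 and 10.43 on the controls, so each transfected array lay below both controls. The log2 difference was -0.53 ± 0.18 for PIAS3 and -0.38 ± 0.18 for siRNA (limma SE), with adjusted p-values of 0.254 and 0.9998. PIAS3 itself differed by only 0.04 ± 0.11 in the PIAS3 arrays. Whether its probes can detect the plasmid's insert is unknown here, so that value checks nothing about the plasmid. Of 10 epithelial markers 9 were measured, and they read 3.46 to 13.8 on the 6 arrays. The keratins KRT7, KRT8 and KRT18 read 12.4 to 13.8, EPCAM 6.04 to 7.24, MUC1 6.16 to 6.36 and TSPAN8 3.46 to 4.01. The largest differences among the 9 in PIAS3 against control were -1.91 ± 0.38 for the keratin KRT19 (limma adjusted p = 0.104) and 1.09 ± 0.16 for CDH1, the adhesion protein E-cadherin (adjusted p = 0.0761). The 8 measured leukocyte markers read 3.85 for PTPRC to 7.09 for CD3E, the 9 fibroblast markers 2.98 to 8.88 with COL1A1 the brightest, and the 6 endothelial markers 3.76 to 6.57, against 3.26 to 3.93 for 3 control probe sets of absent transcripts. The part of these markers in the results was not tested.

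PIAS3 replicate 1 stood apart from the other arrays. The differences between the 2 arrays of a group had an SD over probe sets of 0.35 for PIAS3, 0.25 for siRNA and 0.15 for control. A list of 34 interferon-stimulated genes had a median log2 value 3.10 above the control mean in PIAS3 replicate 1, against 0.02 above it in PIAS3 replicate 2. All 34 lay above the control mean in PIAS3 replicate 1, by 1.28 to 8.11, the largest difference being that of IFIT1, an antiviral gene. The poly-A spike-in RNAs of the labelling (24 probe sets) also were higher on that array, with a median 1.41 above the control mean, and the hybridization spike-ins (18 probe sets) had a median 0.48 above it. In PIAS3 replicate 2 those spike-in medians were -0.13 and -0.10. What part these differences have in the results below was not tested. The medians of the gene groups described below are therefore also given for each PIAS3 array, as log2 values minus the control mean.

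Setting PIAS3 against control asks what the plasmid's recipients express differently. Replication and G1/S genes were mostly lower in the PIAS3 arrays, with a median log2 difference of -0.37 over the 46 genes, against -0.00 over all 11963 genes. CCNE2 (cyclin E2) had the largest difference, with -1.21 ± 0.34, a level 2.32-fold lower. GINS1, a subunit of the GINS helicase cofactor, was at -0.70 ± 0.23 (1.62-fold lower) and CDC6, a licensing factor, at -0.68 ± 0.22 (1.60-fold lower). Of the 46 genes, 43 lay below 0 and 3 above it, namely RPA3, RRM2 and E2F2. None passed the test across all genes (limma, Benjamini-Hochberg adjusted p under 0.05), and 0.125% of all genes did. The smallest adjusted p among the 46 was 0.193, for CCNE2. At an unadjusted p under 0.05, 16 of the 46 were lower (34.8%) and 0 higher, against 7.44% of all genes lower and 7.13% higher. In 30 of the 46 (65.2%) both PIAS3 arrays lay below both control arrays, as they did in 23.7% of all genes. Only E2F2 had both PIAS3 arrays above both controls, as did 22.4% of all genes. In bulk RNA, fewer cells in S phase and less RNA per cell cannot be told apart.

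**Figure D1:**
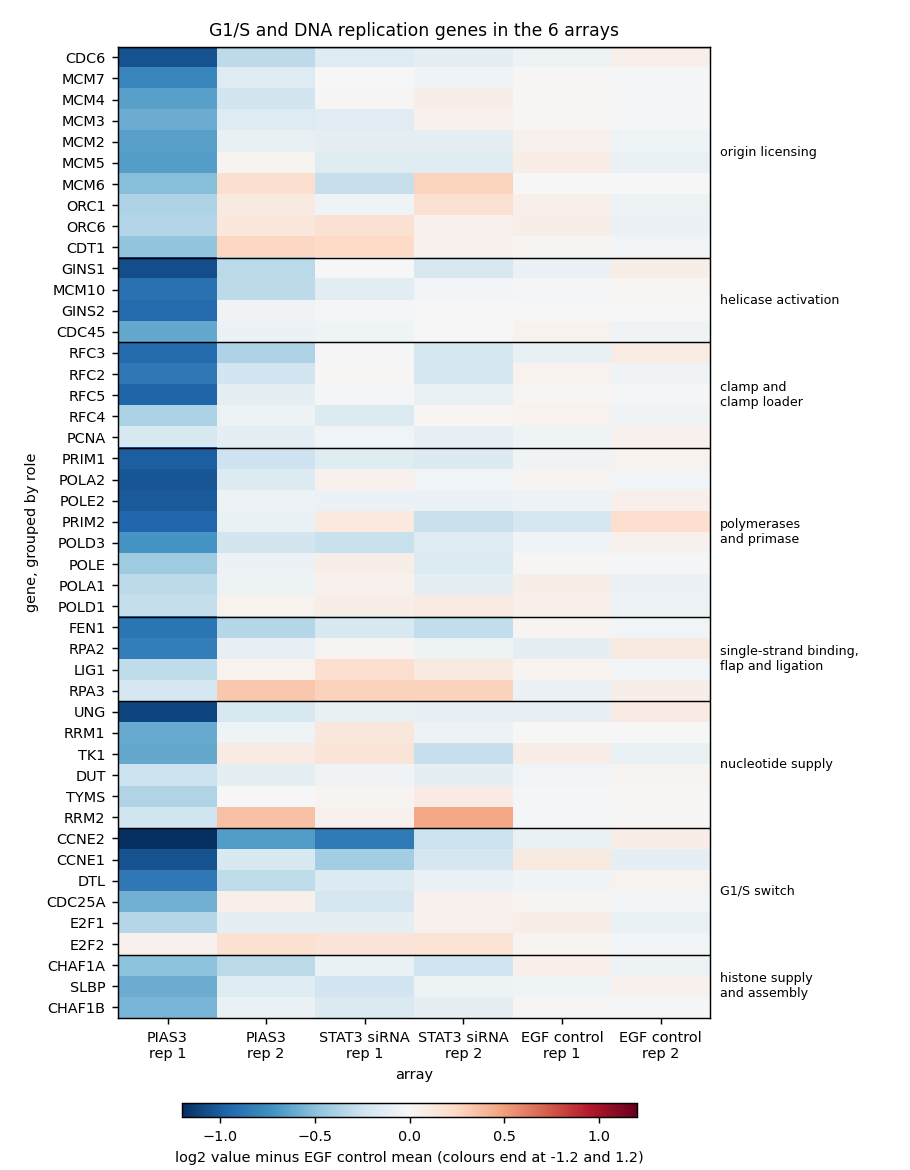
Log2 value minus the mean of the 2 EGF control arrays for each of the 46 genes (rows, grouped by role) on the 6 arrays (columns), with blue for lower and red for higher values. The PIAS3 replicate 1 column is blue in 45 of the 46 rows, and the PIAS3 replicate 2 column is paler in every row where it is blue.

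The low values sat mostly on PIAS3 replicate 1. Relative to the control mean, the median log2 value of the 46 genes was -0.62 in that array and -0.09 in PIAS3 replicate 2. The corresponding values were -0.04 and -0.07 in the siRNA arrays and 0.01 and -0.01 in the controls. PIAS3 replicate 1 read below PIAS3 replicate 2 in all 46 genes, as it did in 54.4% of all genes, by 0.08 for PCNA to 1.09 for CCNE2 with a median of 0.56. PIAS3 replicate 1 lay below both controls in 45 of 46 genes (43.8% of all genes), and PIAS3 replicate 2 in 30 of 46 (37.8%). In the siRNA arrays the counts were 22 (32.1%) in replicate 1 and 26 (44.0%) in replicate 2. The median of PIAS3 replicate 2 thus lay nearer to those of the siRNA arrays than to that of PIAS3 replicate 1.

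**Figure D2:**
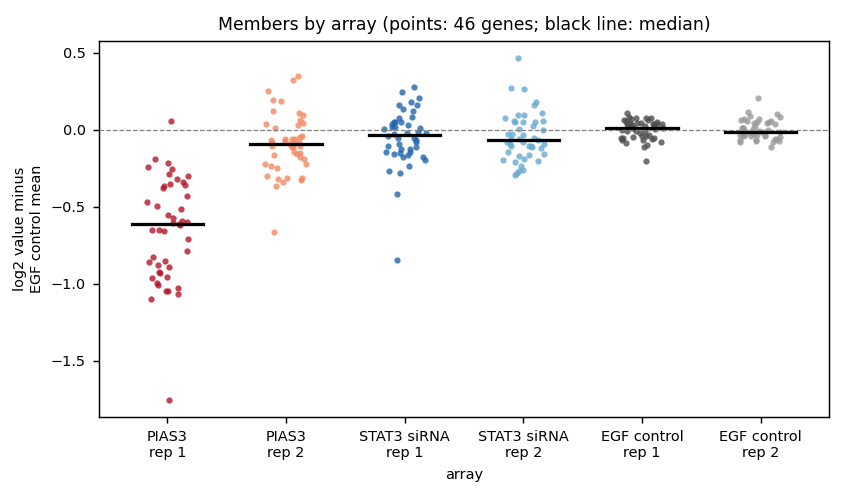
Each point is 1 of the 46 genes, as its log2 value minus the mean of the 2 EGF control arrays, and the black line is the median of the array. The medians are -0.62 and -0.09 for PIAS3 and -0.04 and -0.07 for siRNA, while the control arrays stay near 0.

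Leaving out each PIAS3 array gave different counts. Without PIAS3 replicate 1 the median of the 46 was -0.09 and 0 of them passed the adjusted test (0.0167% of all genes). Without PIAS3 replicate 2 the median was -0.62 and 23 of the 46 passed, all lower (5.78% of all genes). In these fits the remaining PIAS3 array is assumed to vary like the other groups. The 23 genes included CCNE2 at -1.76 ± 0.24, UNG at -1.10 ± 0.13, GINS1 at -1.07 ± 0.14 and CDC6 at -1.04 ± 0.12.

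Among the 10 licensing genes the median difference between PIAS3 and control arrays was -0.34, and all 10 lay below 0. The median was -0.63 on PIAS3 replicate 1, where all 10 lay below the control mean, and -0.03 on PIAS3 replicate 2, where 5 did. MCM2 read 9.98 and 10.54 on the PIAS3 arrays (replicate 1 first, as throughout), 10.52 and 10.52 on the siRNA arrays and 10.68 and 10.58 on the controls. MCM3 read 9.41 and 9.85 with PIAS3, 9.88 and 10.05 with siRNA and 10.02 and 9.99 in the controls. MCM4 read 9.43 and 9.85 with PIAS3, 10.10 and 10.16 with siRNA and 10.10 and 10.08 in the controls. In these 3 subunits of the helicase ring both PIAS3 arrays lay below both controls, as in 23.7% of all genes. The siRNA arrays lay on either side of the controls for MCM3, below them for MCM2 (19.5% of all genes) and above them for MCM4 (19.4%). For MCM4 this was read on its brightest probe set. The siRNA differences from control of its 4 probe sets ran from -0.22 to 0.05. MCM5 read 9.83 and 10.52 with PIAS3, 10.34 and 10.34 with siRNA and 10.56 and 10.41 in the controls, so PIAS3 replicate 2 lay between the controls. MCM6 read 10.60 and 11.30 with PIAS3, 10.83 and 11.38 with siRNA and 11.12 and 11.11 in the controls, with replicate 2 of both transfected groups above the controls and replicate 1 below. MCM7 read 10.47 and 11.10 with PIAS3, 11.26 and 11.22 with siRNA and 11.27 and 11.25 in the controls. Its PIAS3 arrays also lay below both controls. The log2 differences from control with PIAS3 ran from -0.47 ± 0.19 for MCM7 to -0.16 ± 0.25 for MCM6, and none of the 6 ring subunits passed the adjusted test.

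Of the loading factors, CDC6 read 8.29 and 9.02 with PIAS3, 9.18 and 9.23 with siRNA and 9.27 and 9.39 in the controls, so the PIAS3 arrays did not overlap the controls (limma adjusted p = 0.239). CDT1, the partner of CDC6 in ring loading, read 8.19 and 8.92 with PIAS3, 8.91 and 8.71 with siRNA and 8.70 and 8.63 in the controls. Its PIAS3 arrays lay on either side of the controls. ORC1 and ORC6, subunits of the origin recognition complex, showed the same split, with differences of -0.13 ± 0.17 and -0.12 ± 0.17.

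**Figure D3:**
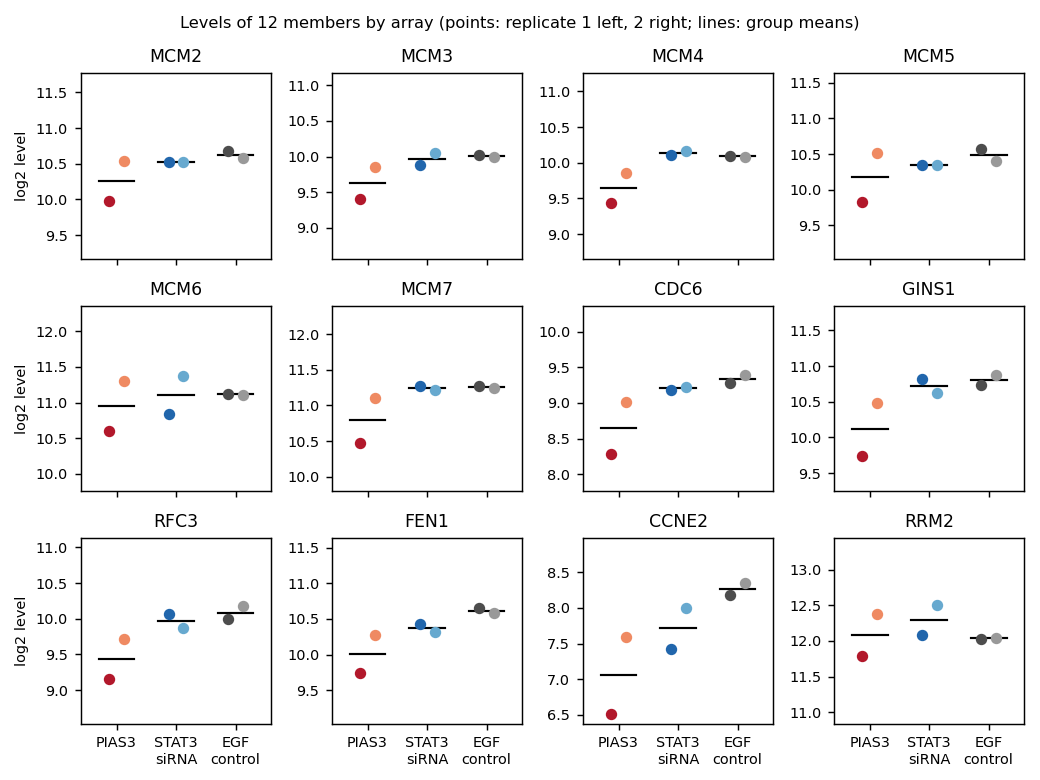
Log2 levels of 12 genes on the 6 arrays, with replicate 1 to the left and replicate 2 to the right in each group and a line at the group mean; every panel spans the same log2 range. In all 12 panels PIAS3 replicate 1 lies below PIAS3 replicate 2, and CCNE2 has both transfected groups below the controls.

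Of the 4 genes of helicase activation all lay below both controls on both PIAS3 arrays, as 23.7% of all genes did, with a median difference of -0.54. The median was -0.91 on PIAS3 replicate 1 and -0.19 on PIAS3 replicate 2. GINS1 read 9.74 and 10.48 with PIAS3, 10.82 and 10.62 with siRNA and 10.74 and 10.88 in the controls. MCM10, which helps to start unwinding, read 8.20 and 8.78 with PIAS3, 8.97 and 9.07 with siRNA and 9.07 and 9.12 in the controls. Its difference from control with PIAS3 was -0.60 ± 0.18 (adjusted p = 0.214). GINS2, another GINS subunit, and CDC45, the helicase partner of GINS, differed by -0.48 ± 0.25 and -0.35 ± 0.18. GINS2 lay at -0.93 and -0.04 and CDC45 at -0.62 and -0.07 from the control mean on the PIAS3 arrays.

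PCNA, the sliding clamp, read 12.19 and 12.27 with PIAS3, 12.35 and 12.29 with siRNA and 12.33 and 12.43 in the controls, a difference of -0.15 ± 0.11 with PIAS3. Its PIAS3 arrays lay below both controls by a small margin. RFC3, a loader subunit, read 9.16 and 9.71 with PIAS3, 10.06 and 9.87 with siRNA and 9.99 and 10.17 in the controls. The differences of the 4 measured loader subunits were -0.65 ± 0.19 for RFC3, -0.54 ± 0.20 for RFC2, -0.54 ± 0.24 for RFC5 and -0.22 ± 0.14 for RFC4. From the control mean, the PIAS3 arrays lay at -0.85 and -0.23 for RFC2, -0.96 and -0.11 for RFC5 and -0.38 and -0.06 for RFC4. A further RFC5 probe set gave -0.13 ± 0.11. All 5 genes of clamp and loader had both PIAS3 arrays below both controls (23.7% of all genes), with medians of -0.85 on PIAS3 replicate 1 and -0.11 on PIAS3 replicate 2.

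The 8 polymerase and primase genes had a median difference of -0.49 between PIAS3 and control arrays. The median was -0.83 on PIAS3 replicate 1, with all 8 below the control mean, and -0.07 on PIAS3 replicate 2, with 7 below. POLA2, the B subunit of polymerase alpha, read 7.94 and 8.80 with PIAS3, 9.02 and 8.94 with siRNA and 9.003 and 8.94 in the controls. POLD1, the catalytic subunit of polymerase delta, read 9.42 and 9.75 with PIAS3, 9.79 and 9.80 with siRNA and 9.77 and 9.64 in the controls. The POLA2 arrays of the PIAS3 group lay below both controls, and those of POLD1 overlapped the controls. PRIM1, the catalytic subunit of primase, had the largest difference of the group with -0.62 ± 0.22, and lay at -0.99 and -0.25 from the control mean on the PIAS3 arrays. The other members ran from -0.54 ± 0.27 for POLE2 to -0.19 ± 0.13 for POLA1, which lay further from 0 than POLD1 at -0.12 ± 0.14.

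Among the genes that handle single-stranded DNA, flaps and nicks, FEN1 and RPA3 gave values on opposite sides of 0. FEN1, the flap endonuclease of Okazaki fragment maturation, read 9.74 and 10.27 with PIAS3, 10.43 and 10.32 with siRNA and 10.65 and 10.58 in the controls. Both PIAS3 and both siRNA arrays lay below the controls, and the difference with PIAS3 was -0.61 ± 0.18 (adjusted p = 0.198). RPA3, the smallest subunit of the RPA single-strand binding protein, read 10.51 and 11.05 with PIAS3, 11.01 and 11.00 with siRNA and 10.66 and 10.80 in the controls. Its siRNA arrays and PIAS3 replicate 2 lay above both controls, and PIAS3 replicate 1 below. RPA2 differed by -0.46 ± 0.23 and the ligase LIG1 by -0.13 ± 0.14. From the control mean, the PIAS3 arrays lay at -0.83 and -0.10 for RPA2 and at -0.30 and 0.04 for LIG1. The median of the 4 genes was -0.56 on PIAS3 replicate 1 and -0.03 on PIAS3 replicate 2.

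The 6 nucleotide supply genes, which here include the uracil glycosylase UNG, had a median of -0.22, the nearest to 0 of the 8 roles. It was -0.48 on PIAS3 replicate 1 and -0.02 on PIAS3 replicate 2, with all 6 below the control mean on the first and 3 on the other. UNG read 9.60 and 10.51 with PIAS3, 10.61 and 10.61 with siRNA and 10.60 and 10.80 in the controls, a difference of -0.64 ± 0.26. RRM2, the regulatory subunit of ribonucleotide reductase, read 11.79 and 12.38 with PIAS3, 12.09 and 12.50 with siRNA and 12.03 and 12.05 in the controls. RRM2 was above the controls on replicate 2 of both transfected groups, as MCM6 was, and PIAS3 replicate 2 was the array nearest to siRNA replicate 2 over all probe sets (SD of the difference 0.19). TYMS, thymidylate synthase, read 11.88 and 12.25 with PIAS3, 12.28 and 12.34 with siRNA and 12.23 and 12.26 in the controls, so the PIAS3 arrays overlapped the controls. RRM1 differed by -0.33 ± 0.18, TK1 by -0.26 ± 0.24 and DUT by -0.19 ± 0.11. From the control mean, the PIAS3 arrays lay at -0.61 and -0.05 for RRM1, -0.61 and 0.10 for TK1 and -0.26 and -0.11 for DUT.

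At the G1/S switch, both cyclin E genes read below both controls on every transfected array, as did 10.7% of all genes. The 6 genes of this role had a median of -0.71 on PIAS3 replicate 1 and -0.14 on PIAS3 replicate 2. CCNE2 read 6.51 and 7.60 with PIAS3, 7.42 and 8.005 with siRNA and 8.18 and 8.35 in the controls. CCNE1 (cyclin E1) read 8.79 and 9.66 with PIAS3, 9.42 and 9.64 with siRNA and 9.95 and 9.73 in the controls. The CCNE1 differences from control were -0.61 ± 0.26 with PIAS3 and -0.31 ± 0.26 with siRNA. DTL, a substrate adaptor of the CUL4 ubiquitin ligase, read 9.05 and 9.60 with PIAS3, 9.74 and 9.82 with siRNA and 9.86 and 9.95 in the controls. E2F2, a transcription factor of the E2F family, read 5.71 and 5.84 with PIAS3, 5.81 and 5.82 with siRNA and 5.69 and 5.63 in the controls. E2F2 was low on the array and was the only gene of the 46 below the 40th percentile of mean level over all probe sets. E2F1 differed by -0.23 ± 0.13 and the phosphatase CDC25A by -0.26 ± 0.21. E2F1 lay at -0.34 and -0.11 and CDC25A at -0.57 and 0.06 from the control mean on the PIAS3 arrays.

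The 3 genes of histone supply lay below both controls on both PIAS3 arrays (23.7% of all genes), with medians of -0.55 on PIAS3 replicate 1 and -0.14 on PIAS3 replicate 2. CHAF1A, the large subunit of the histone chaperone CAF-1, read 8.26 and 8.44 with PIAS3, 8.68 and 8.52 with siRNA and 8.82 and 8.70 in the controls, a difference of -0.41 ± 0.12 (adjusted p = 0.204). SLBP, which binds the stem-loop of histone mRNA, read 9.99 and 10.44 with PIAS3, 10.35 and 10.52 with siRNA and 10.53 and 10.63 in the controls. The middle subunit of CAF-1, CHAF1B, differed by -0.32 ± 0.16, with -0.55 and -0.08 on the PIAS3 arrays relative to the control mean.

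**Figure D4:**
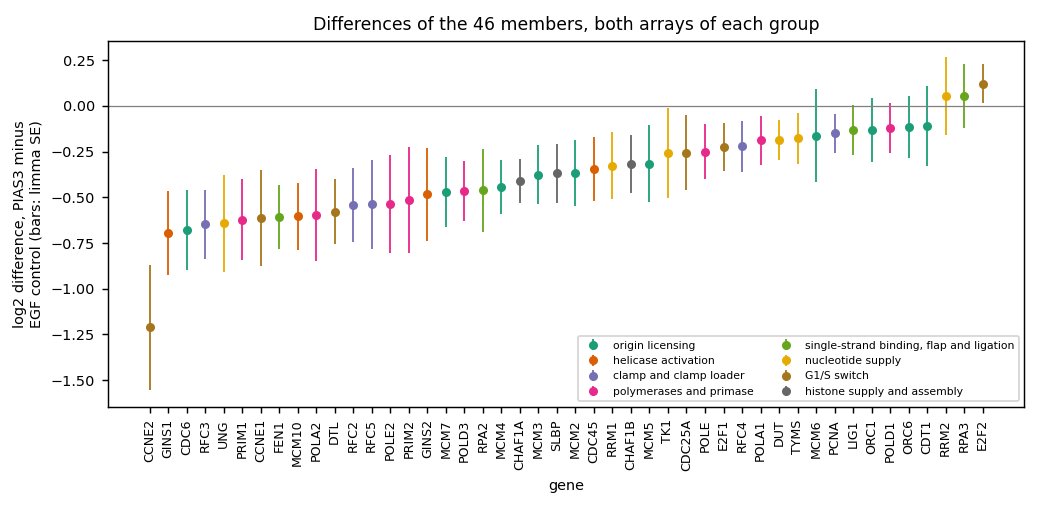
Log2 difference between PIAS3 and EGF control arrays for each of the 46 genes, ordered by size and coloured by role, with limma standard errors as bars. CCNE2 stands lowest at -1.21, and 3 genes, RRM2, RPA3 and E2F2, stand above 0.

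The siRNA comparison asks the same of cells that received siRNA against STAT3. Differences from control were small, with a median of -0.06 over the 46 genes and 34 below 0 and 12 above. CCNE2 had the largest, -0.55 ± 0.34, followed by CCNE1 at -0.31 ± 0.26, RPA3 at 0.27 ± 0.18, RRM2 at 0.26 ± 0.21 and FEN1 at -0.24 ± 0.18. None of the 46 passed the adjusted test (0.00836% of all genes), and the smallest adjusted p was 0.9998. No gene of the 46 had an unadjusted p under 0.05 in either direction, against 3.06% of all genes lower and 2.32% higher. Both siRNA arrays lay below both controls in 15 of 46 genes (19.5% of all genes) and above both in 8 (19.4%). The 8, each on its brightest probe set, were MCM4, CDT1, POLD1, RPA3, LIG1, RRM2, TYMS and E2F2. The siRNA differences of MCM4 and TYMS changed sign between their probe sets. Both comparisons use the same control arrays, so their values are given side by side. In 14 of the 46 genes all 4 transfected arrays lay below both controls, as they did in 10.7% of all genes. These were MCM2, CDC6, MCM10, POLD3, POLE2, PRIM1, FEN1, DUT, CCNE1, CCNE2, DTL, CHAF1A, CHAF1B and SLBP, and so included both subunits of CAF-1 and both cyclins E.

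Between the transfected groups, the median log2 difference of PIAS3 minus siRNA was -0.27, and all 46 genes lay below 0, although PCNA was at 0.0021 after cyclic loess scaling. These are readings of the brightest probe sets. A less bright probe set each of TYMS, RFC5 and CDC25A gave 0.18, 0.09 and 0.09. None passed the adjusted test (0.0% of all genes), and the smallest adjusted p was 0.607, for MCM4 at -0.49 ± 0.15. At an unadjusted p under 0.05, 8 genes were lower (3.83% of all genes). Both PIAS3 arrays lay below both siRNA arrays in 23 of 46 genes (17.5% of all genes), among them GINS1, MCM10, POLA2 and RFC3. The differences of these 4 were -0.60 ± 0.23, -0.53 ± 0.18, -0.61 ± 0.25 and -0.53 ± 0.19. The range ran from -0.66 ± 0.34 for CCNE2 to -0.04 ± 0.11 for E2F2. Without PIAS3 replicate 1 the median was -0.04, 30 genes lay below 0 and 0 passed (0.0% of all genes). Without PIAS3 replicate 2 the median was -0.55 and 14 passed (2.43% of all genes), all of them lower in the remaining PIAS3 array.

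Genes around the same pathway were read from lists that did not hold the 46. Of 24 measured genes of other origin, helicase and fork proteins, 21 lay below 0 in PIAS3 against control, with a median of -0.21. The median was -0.38 on PIAS3 replicate 1, where 21 lay below the control mean, and -0.03 on PIAS3 replicate 2, where 15 did. Of them 0 passed limma's adjusted test and 2 were lower at an unadjusted p under 0.05, near the 7.44% of all genes. RFC1, the large subunit of the clamp loader, read 8.14 and 8.28 with PIAS3, 8.41 and 8.26 with siRNA and 8.60 and 8.48 in the controls, a PIAS3 difference of -0.33 ± 0.12. GMNN (geminin), an inhibitor of CDT1, read 9.78 and 10.42 with PIAS3, 10.58 and 10.58 with siRNA and 10.53 and 10.64 in the controls, a PIAS3 difference of -0.48 ± 0.20.

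All 17 measured genes of S phase chromatin and repair lay below 0 with PIAS3 (median -0.25). The median was -0.46 on PIAS3 replicate 1, with all 17 below the control mean, and -0.12 on PIAS3 replicate 2, with 13 below. Of the 17, 0 passed the adjusted test and 6 were lower at an unadjusted p under 0.05 (7.44% of all genes). CHEK1, a checkpoint kinase, read 7.25 and 7.65 with PIAS3, 8.06 and 7.81 with siRNA and 7.95 and 8.14 in the controls, a PIAS3 difference of -0.59 ± 0.17. Among 20 regulators of the transition the median was -0.10 and 13 lay below 0, with medians of -0.13 on PIAS3 replicate 1 and 0.03 on PIAS3 replicate 2. TFDP1, the dimer partner of E2F factors, read 9.78 and 10.08 with PIAS3, 10.19 and 10.16 with siRNA and 10.38 and 10.46 in the controls (PIAS3 difference -0.49 ± 0.13, adjusted p = 0.168). Of the regulators 0 passed, and at an unadjusted p under 0.05 there were 4 lower (7.44% of all genes) and 1 higher (7.13%). Of 15 other nucleotide supply genes 12 lay below 0 (median -0.13), with medians of -0.18 on PIAS3 replicate 1 and -0.07 on PIAS3 replicate 2. Of these 0 passed the adjusted test and 1 was lower at an unadjusted p under 0.05, near the 7.44% of all genes. It was UMPS, which makes UMP, with 8.77 and 9.22 with PIAS3, 9.38 and 9.33 with siRNA and 9.54 and 9.51 in the controls (PIAS3 difference -0.53 ± 0.16).

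Mitosis genes, the other large set of cell cycle genes, mostly lay above the controls. Relative to the control mean, PIAS3 arrays had medians of 0.08 and 0.31 over 28 such genes, and siRNA arrays had medians of 0.43 and 0.32. Below the control mean lay 12 of the 28 on PIAS3 replicate 1 and 2 on PIAS3 replicate 2. On the siRNA arrays the counts were 0 and 1. In siRNA against control all 28 lay above 0 with a median of 0.36, and 18 were higher at an unadjusted p under 0.05 (2.32% of all genes) and 0 at an adjusted one. In PIAS3 against control 22 of the 28 lay above 0 (median 0.21), 8 of them at an unadjusted p under 0.05 (7.13% of all genes) and 0 past the adjusted test. CENPE, a kinesin of kinetochores, read 8.23 and 7.86 with PIAS3, 7.92 and 8.01 with siRNA and 7.43 and 7.33 in the controls. Its difference with PIAS3 was 0.66 ± 0.14 (limma adjusted p = 0.119), the highest of the 28, and MAD2L1 was the lowest at -0.30. The 46 replication genes had a median of -0.37 in the same fit, against 0.21 for the 28 mitosis genes. In PIAS3 against siRNA, 26 of the 28 mitosis genes lay below 0, with a median of -0.17. Below 0 there were also all 17 S phase chromatin and repair genes (median -0.23) and 21 of the 24 fork genes (-0.21). The counts were 13 of 15 for the other nucleotide supply genes (-0.22) and 10 of 20 for the regulators (-0.06).

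**Figure D5:**
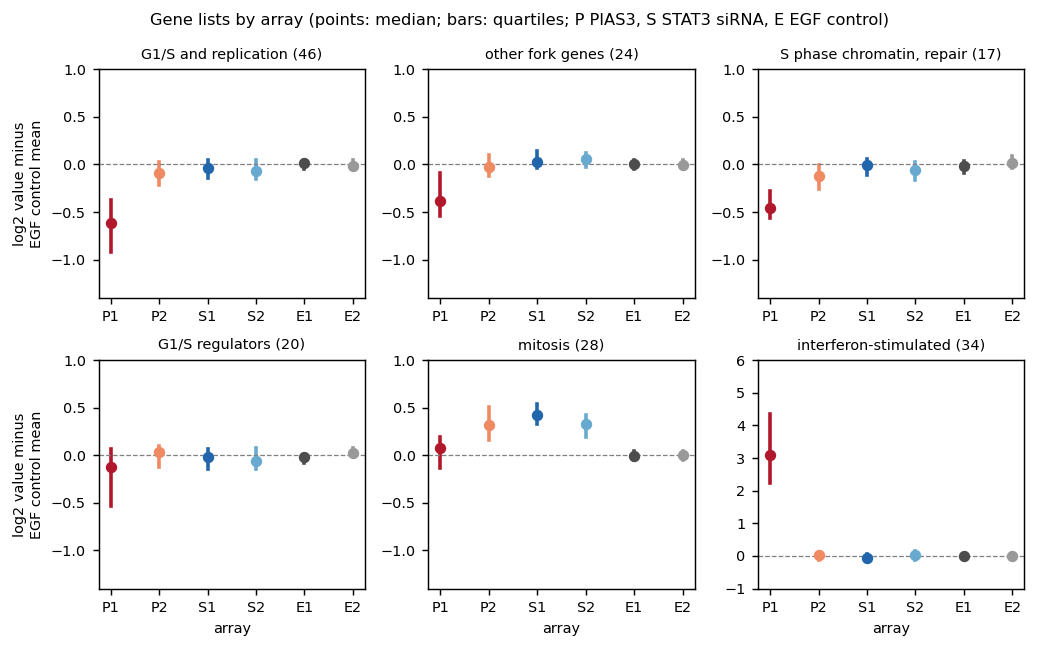
Median (points) and quartiles (bars) of the log2 value minus the EGF control mean for 6 gene lists on the 6 arrays (P for PIAS3, S for STAT3 siRNA, E for EGF control, 1 and 2 for the replicates); the interferon panel has its own axis range. PIAS3 replicate 1 is low for the replication lists and 3.10 above the control mean for the interferon-stimulated genes.

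A second reading of the same genes came from their other probe sets. There were 21 of them, on the 16 genes with several probe sets, and 20 differed below 0 in PIAS3 against control, with a median of -0.52. In 19 of the 21, PIAS3 replicate 1 read below PIAS3 replicate 2, and none passed the adjusted test in any comparison. The 4 probe sets of MCM4 gave -0.97 to -0.44. Those of CCNE2 gave -1.21 and -0.92. The other probe set of RRM2 gave -0.19 against 0.05 for its brighter one, and that of TYMS 0.04 against -0.18, so the sign of these 2 genes depended on the probe set. The other TYMS probe set read only 5.29 to 5.72 on the 6 arrays, and its difference had an SE of 0.15. In siRNA against control the sign depended on the probe set for CDC6, E2F1, MCM4 and TYMS. Their ranges were -0.13 to 0.06, -0.03 to 0.04, -0.22 to 0.05 and -0.13 to 0.07. In PIAS3 against siRNA it did so for CDC25A (-0.18 to 0.09), RFC5 (-0.49 to 0.09) and TYMS (-0.24 to 0.18).

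The 10 genes outside the list whose profile over the 6 arrays was most like the mean of the 46 were PPP2R3C, QDPR, SH3GLB2, WDR76, RHOC, SPOCK1, TUBA4B, ARPC1A, POLR3B and POP7. Their Pearson r was 0.992 to 0.995 over 6 arrays, among 2105 genes with a mean level above the 40th percentile and an SD of at least 0.2. The 6 arrays include the low values of PIAS3 replicate 1, which weigh heavily in r. WDR76, for example, read 6.12 and 7.26 with PIAS3, 7.34 and 7.47 with siRNA and 7.40 and 7.52 in the controls.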

How the data were processed

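Expression was measured on 6 Affymetrix arrays, 2 per group. Per the labels' protocols, RNA was extracted with an RNeasy kit and labelled as biotinylated cRNA. The deposited values are log2 intensities summarised by RMA, per the submitters' processing notes, which name no genome build, software version or array annotation version. The table held 22277 probe sets. The 62 array controls were left out and 22215 were tested. Array medians were 6.63 to 6.72 on the log2 scale, and the number of arrays limits the precision.

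The tests used limma 3.58.1 (R 4.3.3, functions lmFit and eBayes, two-sided), all 6 arrays in 1 fit with 3 residual degrees of freedom, with Benjamini-Hochberg adjustment over 22215 probe sets. Errors are the fit's standard errors. The fit was tested on simulated data. Alternatives were other normalizations, filters, eBayes settings, a replicate block and leaving out each array. Gene names came from the platform annotation, in which 19064 probe sets have 1 symbol, 1043 several and 2108 none. All 46 symbols were current in RefSeq. RMA levels of different probe sets are compared only to pick the brightest, to filter on mean level and to describe markers and low levels.

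The genes, the other lists and the tests were chosen with earlier results of these data known. Values per array are given for the 5 smallest p-values and 5 largest differences of each comparison, the brightest gene of each role, MCM2 to MCM7 and PCNA, and for other lists up to 3 genes per comparison. WDR76 and IFIT1 were picked after their values were seen. The labels state no pairing by replicate number, and the main fit did not pair the arrays.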

Additional observations from a re-analysis of the deposited data

How the results depend on the processing

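Leaving out each array in turn (the lone array left is assumed to vary like the other groups) gave medians over the 46 genes of -0.62 to -0.091 for PIAS3 against control, -0.066 to -0.035 for siRNA against control and -0.55 to -0.045 for PIAS3 against siRNA. The numbers of genes with an adjusted p under 0.05 were 0 to 23 in the first and 0 to 14 in the last, and the 23 and 14 came without PIAS3 replicate 2. In the other alternatives (a filter on low means at the 40th percentile, quantile normalization, cyclic loess, centring by median, robust or trended eBayes, averaged probe sets, and the 2 groups alone) and in array weights, which were added after the data were seen, 0 of the 46 passed in each comparison. The numbers lower at an unadjusted limma p under 0.05 in PIAS3 against control were 16 with all arrays (7.44% of all genes) and 12 to 23 in the other alternatives. In PIAS3 against siRNA they were 8 with all arrays (3.83% of all genes) and 3 to 10 in the other alternatives. The share of all genes at this threshold was not counted in the alternatives, so their counts cannot be set against it. Over all genes, 15 passed the adjusted test in PIAS3 against control, and 0 to 692 did with an array left out. With the replicate number as a block the medians were -0.37, -0.06 and -0.27 and 0 of the 46 passed, with a smallest limma adjusted p of 0.109. The block could not change these medians, because each group holds both replicate numbers. Deviations of same-numbered arrays correlated at -0.05, 0.09 and -0.06 over the tested probe sets. Whether same-numbered arrays shared a batch is not stated and was not tested. Some named genes, none past the adjusted test with all arrays, changed the sign of their log2 difference when an array was left out, and the ranges over the arrays left out follow. In PIAS3 against control they were -0.66 to 0.029 for MCM5, -0.52 to 0.19 for MCM6, -0.29 to 0.045 for POLD1, -0.21 to 0.32 for RPA3, -0.24 to 0.35 for RRM2 and -0.36 to 0.0084 for TYMS. In siRNA against control they were -0.19 to 0.0092 for GINS1, -0.13 to 0.048 for MCM3, -0.28 to 0.26 for MCM6, -0.038 to 0.0053 for MCM7, -0.031 to 0.052 for POLA2 and -0.20 to 0.0087 for UNG. In PIAS3 against siRNA they were -0.74 to 0.13 for CCNE1, -0.10 to 0.027 for E2F2, -0.54 to 0.021 for MCM2, -0.51 to 0.17 for MCM5, -0.51 to 0.20 for MCM6, -0.49 to 0.047 for RPA3, -0.50 to 0.089 for RRM2 and -0.44 to 0.0032 for SLBP. Averaged probe sets gave -0.068 for RRM2 in PIAS3 against control, and -0.12 for MCM4 and -0.034 for TYMS in siRNA against control. Cyclic loess gave 0.0021 for PCNA in PIAS3 against siRNA, and the cause of that change was not tested. Array weights were equal within each group, as they must be with 2 arrays a group. They could not weigh PIAS3 replicate 1 apart from PIAS3 replicate 2.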
